A study of Mus musculus with 6 samples.

Results

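The Enpp ectonucleotidases (Enpp1 to Enpp6) and the enzymes that make or remove extracellular adenosine (Entpd1, Nt5e and Ada) were followed in RNA-seq of A20 cells, a mouse B cell lymphoma line of strain BALB/C. These 9 genes, of 27179 gene identifiers counted, were chosen by symbol because Enpp3 was already known to rise strongly in cells carrying the TETact-v3 activator in these same libraries. The Enpp3 values against wild type are therefore a description with no test. The study asked how specific TETact-v3 is, a system in which the catalytic domain of TET1, an enzyme that oxidises methylated cytosine, is recruited to dCas9 through SunTag epitopes and the p65-hsf1 activator through MS2 aptamers in the sgRNA. There were 3 groups of 2 replicates. Wild-type A20 cells carried no activator, control sgRNA cells carried TETact-v3 with a non-targeting sgRNA, and Cd4 sgRNA cells carried TETact-v3 with an sgRNA against the Cd4 promoter. Both TETact-v3 groups were made with lentiviral vectors and were assayed on day 7 after sgRNA transduction. Wild-type cells were not transduced, so the vectors, any sort and the activator cannot be told apart in any comparison with wild type. The methods describe sorting of transduced cells in general and do not state it for these libraries.

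ENPP enzymes are membrane or secreted phosphodiesterases that cut nucleotides or lipids outside the cell. ENPP1 and ENPP3 cut extracellular ATP to AMP, CD39 (the product of Entpd1) removes phosphates from ATP and ADP, CD73 (Nt5e) turns AMP into adenosine, and adenosine deaminase (Ada) turns adenosine into inosine. ENPP1 also degrades the immune messenger cGAMP, ENPP2 (autotaxin) makes lysophosphatidic acid (LPA), and ENPP3 (CD203c) is a surface marker of basophils and mast cells.

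The libraries held between 23194920 and 121623410 counts, with the control sgRNA libraries the deepest. Cd4 itself had 30959 and 40422 counts in the Cd4 sgRNA libraries and between 17 and 127 in the other 4, which checks the labels of the Cd4 sgRNA libraries but not those of wild type against control sgRNA. Control sgRNA replicate 2 stood apart. Its log2 CPM (counts per 1000000 after scaling of library size) correlated with its own replicate at 0.9873, against 0.9973 and 0.9975 for the replicate pairs of wild type and Cd4 sgRNA, and mitochondrial genes took 11.54% of its counts. Their share was 2.65% and 2.69% in wild type and 5.96% to 6.90% in the other 3 TETact-v3 libraries, so it separated wild type from both TETact-v3 groups in every comparison with wild type. Values of the members are given below with and without control sgRNA replicate 2, and those of the wider set of genes as a summary. All 7 B cell markers were tested, and 4 of them were lower in both TETact-v3 groups than in wild type, where 13.5% (control sgRNA) and 10.7% (Cd4 sgRNA) of all genes were lower. Of 5 plasma cell markers, Irf4 and Sdc1 were higher and Xbp1 lower in both TETact-v3 groups. Of all genes, 14.5% (control sgRNA) and 9.85% (Cd4 sgRNA) were higher. Prdm1 was higher in control sgRNA cells, though not with voomLmFit, the study's own test (adjusted p = 0.135). The part of these differences in the results below was not tested. In bulk RNA, fewer cells that express a gene and less RNA per cell cannot be told apart.

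The promoters of Enpp3 and Enpp1 are shown because TET1 acts on methylated cytosine in CG pairs and because these 2 genes lie 61655 bases apart on chromosome 10 and differed from wild type in opposite directions. Each line gives the 220 bases that lie from 250 to 31 bases before the RefSeq start on GRCm38.p6, read 5′ to 3′ on the minus strand, which both genes use, with each CG in capitals. The Enpp3 stretch is chr10:24836226-24836445 and the Enpp1 stretch is chr10:24712190-24712409.
Enpp3: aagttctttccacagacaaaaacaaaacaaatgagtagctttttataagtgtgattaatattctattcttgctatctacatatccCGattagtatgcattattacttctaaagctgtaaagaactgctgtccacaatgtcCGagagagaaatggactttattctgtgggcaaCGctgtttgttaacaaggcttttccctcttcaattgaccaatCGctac
Enpp1: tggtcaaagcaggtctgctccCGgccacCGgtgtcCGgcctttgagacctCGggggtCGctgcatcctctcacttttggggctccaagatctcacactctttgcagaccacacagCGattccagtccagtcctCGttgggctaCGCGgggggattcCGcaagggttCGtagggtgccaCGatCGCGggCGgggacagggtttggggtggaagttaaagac

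Over the full 250 bases the Enpp3 promoter held 5 CG pairs at 36.8% G and C, and the Enpp1 promoter 17 CG pairs at 61.2%. The median over 32841 RefSeq promoters of this length was 6 CG pairs, and 49.6% of them held at most 5, so Enpp3 lies near the middle. Of the 9 members, 7 had a promoter in this set. The Enpp6 promoter held 4 CG pairs, Ada 14, Nt5e 21 and Enpp4 31, and Entpd1 had 2 starts with 18 and 8. Searched on both strands, the Enpp3 promoter held 1 CCAAT, a motif present in 33.9% of all these promoters, and 1 TATAAA, present in 12.4%. It held no GAANNTTC (6.70% of promoters), no ACGTG (16.6%, a motif that itself contains a CG) and no NF-kB consensus (7.25%). The Enpp1 promoter held 1 ACGTG and 1 NF-kB consensus and none of the other 3. DNA methylation was not analysed here.

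Enpp3 (chr10:24773814-24836195, with all positions on GRCm38.p6) was scarce in wild-type A20 cells and abundant in every TETact-v3 library. The 2 wild-type libraries held 308 and 137 Enpp3 counts, the control sgRNA pair 36536 and 17261, and the Cd4 sgRNA pair 10372 and 14880. Scaled by library size and TMM factor, this was 6.63 and 6.40 CPM in wild type, 328.8 and 213.4 CPM in control sgRNA cells, and 316.5 and 336.1 CPM in Cd4 sgRNA cells. Each of the 4 TETact-v3 libraries lay far above both wild-type libraries, and the lowest of the 4 was control sgRNA replicate 2. The group means were 6.51 ± 0.163, 271.1 ± 81.6 and 326.3 ± 13.9 CPM (SD, n = 2 each), a ratio to wild type of 41.6 in control sgRNA and 50.1 in Cd4 sgRNA cells. The fitted log2 fold changes were 5.38 and 5.64, and the first was 5.65 without control sgRNA replicate 2. Both comparisons share the wild-type libraries.

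**Figure D1:**
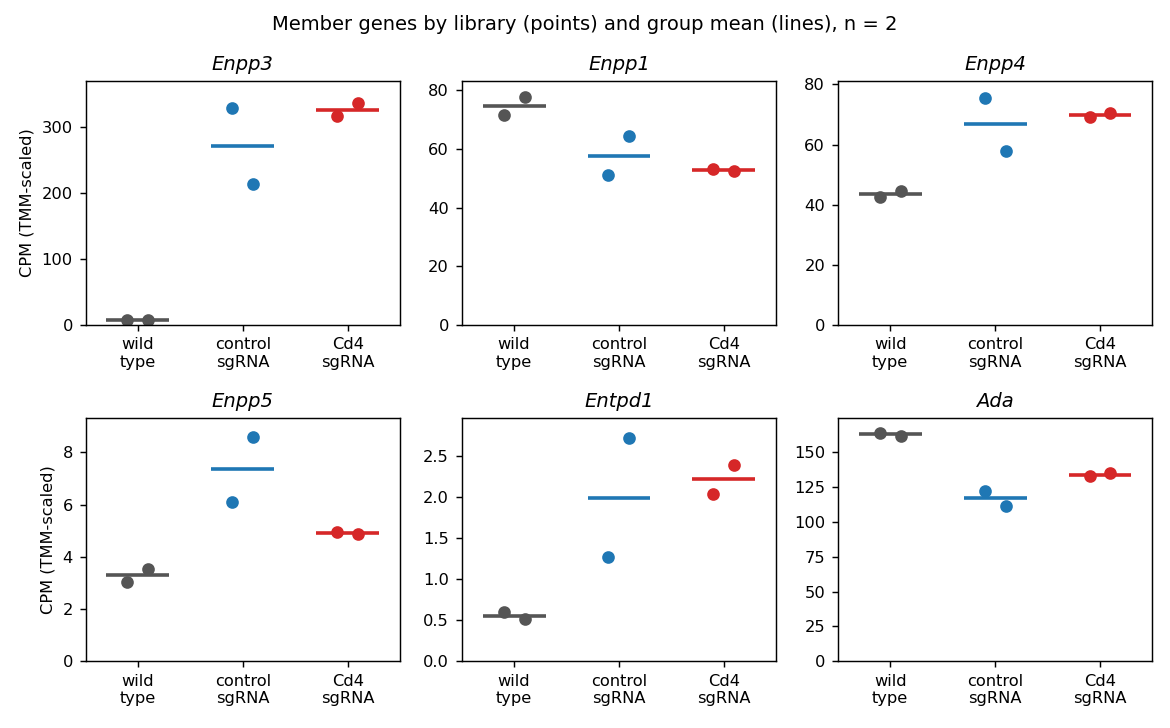
Level of each tested member in CPM after TMM scaling (y axis, from 0) in the 2 libraries of each group (points), with the group mean as a line. Enpp3 was at 6.63 and 6.40 CPM in wild type and at 213.4 to 336.1 CPM in the other 4 libraries, while Ada and Enpp1 were highest in wild type.

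The other members that moved did so by far smaller amounts. Enpp1 (chr10:24637914-24712159) had 71.7 and 77.9 CPM in wild type, 51.0 and 64.4 CPM in control sgRNA cells and 53.2 and 52.6 CPM in Cd4 sgRNA cells. Both TETact-v3 groups lay below wild type without overlap. Against wild type it fell in Cd4 sgRNA cells, with a log2 fold change of -0.50 (SE 0.130, adjusted p = 0.0436, edgeR quasi-likelihood). With control sgRNA it was -0.37 (SE 0.128) and did not pass (adjusted p = 0.0765). The Enpp1 call in Cd4 sgRNA cells was lost in 6 of 18 alternatives, among them voomLmFit, the study's own test (adjusted p = 0.0567).

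Enpp4, which cuts dinucleotides such as Ap3A, and Enpp5 lie close together on chromosome 17, at chr17:44096307-44105809 and chr17:44078802-44086567. Enpp4 had 42.7 and 44.5 CPM in wild type, 75.6 and 57.9 CPM in control sgRNA cells and 69.1 and 70.6 CPM in Cd4 sgRNA cells. It rose in both, by 0.62 (SE 0.138, adjusted p = 0.0226) and 0.68 (SE 0.139, adjusted p = 0.0231) on the log2 scale. Enpp4 overlaps another annotated gene, and whether the counting used strand is not given in the sources used here. Enpp5 had 3.06 and 3.55 CPM in wild type, 6.09 and 8.60 CPM in control sgRNA cells and 4.94 and 4.88 CPM in Cd4 sgRNA cells, so the 3 groups did not overlap. It rose in control sgRNA cells by 1.17 (SE 0.233, adjusted p = 0.0165), and in Cd4 sgRNA cells its log2 fold change was 0.60 (SE 0.255, adjusted p = 0.144).

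The adenosine enzymes differed in level and in direction. Entpd1 (chr19:40612366-40741602) was low, with 0.603 and 0.514 CPM in wild type, 1.28 and 2.72 CPM in control sgRNA cells and 2.05 and 2.40 CPM in Cd4 sgRNA cells. Both wild-type libraries lay below the other 4, and the spread between the control sgRNA replicates was wide. Its log2 fold changes against wild type, 1.76 (SE 0.550, adjusted p = 0.0590) and 1.96 (SE 0.584, adjusted p = 0.0615), did not pass the threshold. Entpd1 overlaps 3 other annotated genes.

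Ada (chr2:163726571-163750239) had 163.5 and 161.4 CPM in wild type, 121.9 and 111.5 CPM in control sgRNA cells and 132.8 and 134.7 CPM in Cd4 sgRNA cells. The 3 groups did not overlap and wild type was highest. It fell in control sgRNA cells by 0.48 on the log2 scale (SE 0.0849, adjusted p = 0.0114), and in Cd4 sgRNA cells its log2 fold change was -0.28 (SE 0.0851, adjusted p = 0.0633).

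Enpp2, Nt5e and Enpp6 did not pass the filter on low counts and were not tested. Enpp2 had 1 count in 1 control sgRNA library and Nt5e 1 count in 1 wild-type library, with 0 in all others. A limit of 3 counts is 0.0270 to 0.140 CPM in these libraries, so levels below that were not detectable at this depth. Enpp6, a choline phosphodiesterase, had 1 and 3 counts in wild type, 13 and 22 in control sgRNA cells and 5 and 3 in Cd4 sgRNA cells, which was at most 0.272 CPM. CD73 transcripts were therefore at or near 0 in every group, whereas transcripts of Ada were abundant.

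Of the 5 members tested other than Enpp3, 2 were higher (Enpp4 and Enpp5) and 1 lower (Ada) in control sgRNA than in wild-type cells. Over all 12418 genes tested 14.5% were higher and 13.5% lower in this comparison. In Cd4 sgRNA cells 1 was higher (Enpp4) and 1 lower (Enpp1), against 9.85% and 10.7% of all genes. The median log2 fold change of these 5 was 0.62 and 0.60 in the 2 comparisons, and that of all tested genes -0.0012 and 0.0045. All 5 had groups that did not overlap in both comparisons, as had 67.1% and 79.8% of all genes. With 2 libraries against 2, an exact permutation test cannot go below 0.333, so the p-values rest on the spread that edgeR shares between genes.

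The calls were sensitive to single libraries. Leaving out wild-type replicate 1 or 2 or Cd4 sgRNA replicate 1 or 2 ended every one of these calls, with adjusted p between 0.0504 and 0.170 for Enpp4, Enpp5 and Ada in control sgRNA cells and between 0.138 and 0.25 for Enpp1 and Enpp4 in Cd4 sgRNA cells. Directions held in each case. Without control sgRNA replicate 2 the log2 fold changes in control sgRNA cells were -0.54 for Enpp1, 0.80 for Enpp4, 0.92 for Enpp5, 1.15 for Entpd1 and -0.41 for Ada. Without control sgRNA replicate 1 they were -0.19, 0.44, 1.44, 2.26 and -0.52 in that order. In these fits the remaining control sgRNA library is assumed to vary like the other groups. Over all genes they made far more calls than the main fit, so only the sizes are given for them here.

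**Figure D2:**
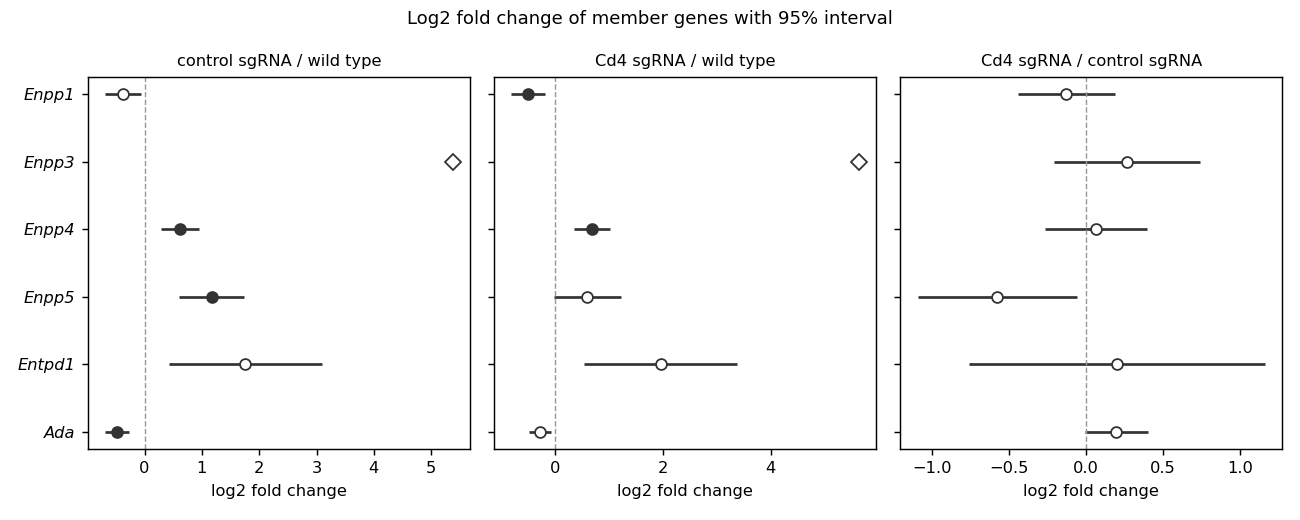
Log2 fold change of each tested member in the 3 comparisons (x axis, a scale of its own in each panel), with the 95% interval as a line, filled circles at adjusted p under 0.05 and open circles otherwise. The open diamonds are Enpp3 against wild type, given without an interval because this change chose the genes, at 5.38 and 5.64, while the other values against wild type lie between -0.50 and 1.96 and those between the TETact-v3 groups between -0.57 and 0.27.

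The comparison of Cd4 sgRNA with control sgRNA cells was not used to choose the genes and could be tested for all 6 members that passed the filter. None of these 6 passed in edgeR, voomLmFit or DESeq2, where edgeR called 0.0725% of all genes, 0.0242% higher and 0.0483% lower, and 1 of the 6 had an unadjusted p under 0.05, as had 24.9% of all genes. That gene was Enpp5, lower in Cd4 sgRNA cells with a log2 fold change of -0.57 (95% interval -1.09 to -0.056, adjusted p = 0.179). For Enpp3 the log2 fold change was 0.27 with an interval of -0.20 to 0.74 (adjusted p = 0.398), so any difference between the 2 TETact-v3 groups was small beside that from wild type. Intervals ran from -0.44 to 0.19 for Enpp1, from -0.27 to 0.39 for Enpp4, from -0.76 to 1.16 for Entpd1 and from -0.0083 to 0.40 for Ada. The Cd4 and control sgRNA libraries did not overlap for Enpp5 and Ada, which held for 59.7% of all genes.

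These small differences turned on the 2 control sgRNA libraries. Without control sgRNA replicate 2 the log2 fold change of Enpp3 between Cd4 and control sgRNA cells was -0.012, and without replicate 1 it was 0.62. For Entpd1 the same 2 values were 0.81 and -0.27. Enpp5 remained lower, at -0.31 and -0.80.

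Per kb of exon the order of the members changed between groups. In wild type Ada was highest at 99.9 ± 0.923 CPM per kb, followed by Enpp1 at 23.2 ± 1.37, Enpp4 at 9.56 ± 0.280, Enpp3 at 2.31 ± 0.0579, Enpp5 at 1.30 ± 0.137 and Entpd1 at 0.133 ± 0.0150 (SD, n = 2), with no overlap between neighbours. In Cd4 sgRNA cells Enpp3 came first at 115.9 ± 4.93 CPM per kb, before Ada at 82.2 ± 0.815, Enpp1 at 16.4 ± 0.126 and Enpp4 at 15.3 ± 0.221. In control sgRNA cells Enpp3 was at 96.3 ± 29.0 CPM per kb and Ada at 71.8 ± 4.54, with the lower Enpp3 library at 75.8 and the higher Ada library at 75.0. Enpp1 at 17.9 ± 2.94 and Enpp4 at 14.7 ± 2.75 overlapped there.

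The summed level of the 6 Enpp genes was 35.2 and 37.6 CPM per kb in the wild-type libraries and 112.0 to 153.1 in the other 4. Enpp1 made up 63.2% and 64.2% of that sum in wild type and 10.4% to 17.9% in the TETact-v3 libraries. Enpp3 made up 6.70% and 6.04% in wild type and 67.7% to 78.0% in the TETact-v3 libraries. Enpp1 was thus the most abundant Enpp transcript in wild type and Enpp3 in the other libraries.

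**Figure D3:**
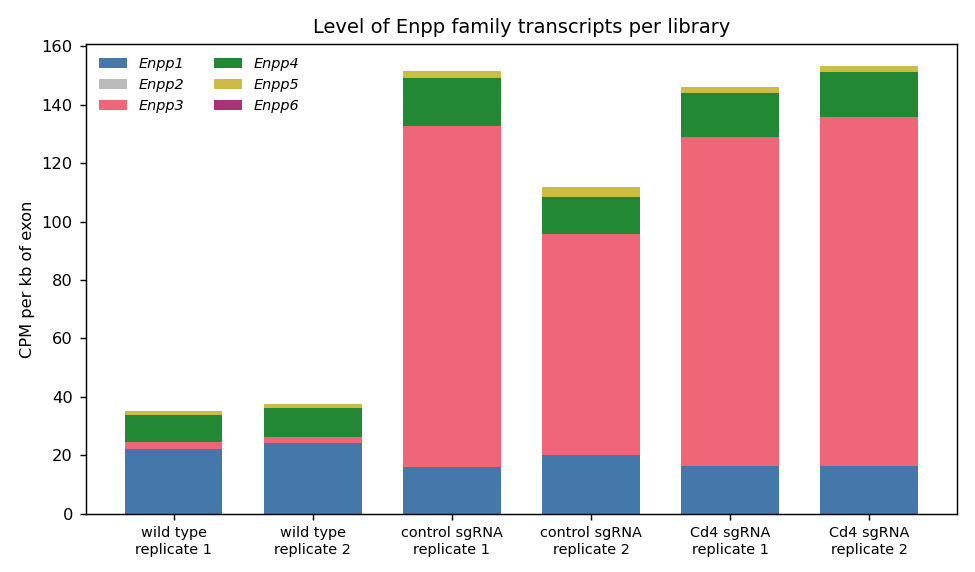
Summed level of Enpp1 to Enpp6 in CPM per kb of exon (y axis) in each of the 6 libraries, with each gene as a coloured part of the bar. Enpp3 is 6.70% and 6.04% of the bar in wild type and 67.7% to 78.0% in the other libraries, and Enpp2 and Enpp6 are too low to be seen.

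ENPP3 marks mast cells and basophils, so 10 markers of those cells were examined. Cpa3, Ms4a2, Fcer1a, Gata2, Kit, Mcpt8, Prss34, Tpsb2 and Cma1 had 0 counts in all 6 libraries. Hdc was the other marker, and the summed level of the list was 0.0226 to 0.495 CPM.

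The genes around Enpp3 that could be tested changed by less than 1 on the log2 scale or were near the detection limit. Of 21 annotated genes within 500 kb, 6 were in the count files and 4 were tested, namely Med23, Enpp1, Akap7 and Moxd1. Med23, a Mediator subunit 33791 bases away, had 56.2 and 55.9 CPM in wild type, 78.2 and 58.0 CPM in control sgRNA and 83.7 and 80.4 CPM in Cd4 sgRNA cells. It rose in Cd4 sgRNA cells by 0.55 (SE 0.148, adjusted p = 0.0472), and with the control sgRNA the difference from wild type was 0.28 (adjusted p = 0.195). Akap7 differed from wild type by 0.026 and -0.13 on the log2 scale (adjusted p = 0.917 and 0.626). Moxd1, with 13 counts or fewer per library, was called lower in control sgRNA cells (adjusted p = 0.0455). It passed the filter on low counts only through wild type, so it could hardly be called higher. Background calls were 14.5% higher and 13.5% lower in control sgRNA and 9.85% and 10.7% in Cd4 sgRNA cells. The Med23 call was lost in 6 of 18 alternatives, among them each left-out wild-type or Cd4 sgRNA library (adjusted p 0.209 to 0.239), and the Moxd1 call was lost in 12 of 16 alternatives, among them voomLmFit (adjusted p = 0.0514), DESeq2 (adjusted p = 0.256) and each left-out library except control sgRNA replicate 2 (adjusted p 0.0642 to 0.392).

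The 5 tested genes whose profile over the 6 libraries was most like that of Enpp3 were A4galt, Ly6k, Tuba3a, Ttn and Shb. Likeness was the root mean square difference of centred log2(CPM + 0.25) values, which was 0.278 to 0.333. The measure centres each profile on its mean. For genes near 0 CPM in wild type, the step also depends on the 0.25 offset and on the level reached. A similar profile is therefore not an equal fold change. The 5 genes had at most 0.560 CPM in wild type, below the 6.40 and 6.63 CPM of Enpp3, and more in each TETact-v3 library. Shb had 19.8 to 25.2 CPM there, Ttn 11.4 to 30.1 CPM, A4galt 8.60 to 12.02 CPM, Ly6k 7.46 to 8.18 CPM and Tuba3a 5.33 to 8.73 CPM. None lies on chromosome 10, and of the 4 with a promoter in the RefSeq set, the 250 bases held 4 CG pairs in Ttn, 8 in Tuba3a, 13 in A4galt and 22 in Shb.

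**Figure D4:**
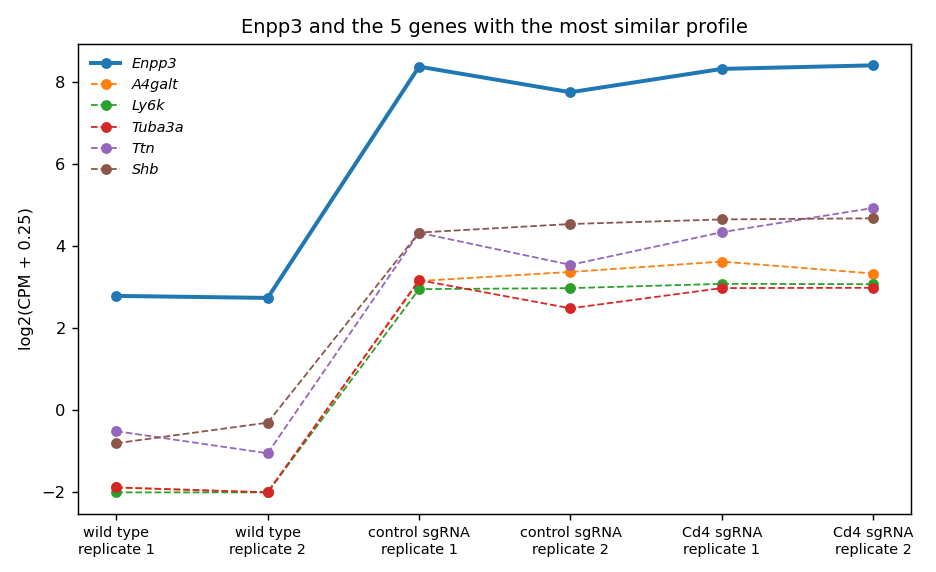
Level of Enpp3 and of the 5 genes with the most similar profile as log2(CPM + 0.25) (y axis) in each library (x axis), with lines joining libraries only to guide the eye. Each of the 6 genes is lower in both wild-type libraries than in the other 4, and Enpp3 in wild type lies near the level that Ly6k and Tuba3a reach in the TETact-v3 libraries.

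The wider set of genes that handle nucleotides, adenosine, LPA and cGAMP, outside or inside the cell, held 74 genes grouped by role, of which 47 were tested. Among the 47 tested were 15 intracellular enzymes and 3 genes of the cGAMP pathway. Control sgRNA cells differed from wild type in 7 genes that rose and 13 that fell, and Cd4 sgRNA cells in 7 that rose and 11 that fell, which is 42.6% and 38.3% of those tested against 28.0% and 20.5% of all genes. The median log2 fold change was -0.15 and -0.054, against -0.0012 and 0.0045 over all genes. The genes that fell include P2rx1 and P2ry14, which passed the filter on low counts only through wild type. Among those that rose, Alpl passed it only through the TETact-v3 groups. The calls again turned on single libraries. Without wild-type replicate 1, 0 rose and 3 fell in control sgRNA cells and 0 and 1 in Cd4 sgRNA cells, without wild-type replicate 2 it was 1 and 6, and 1 and 3, and without either Cd4 sgRNA library at most 1 rose and 3 fell in Cd4 sgRNA cells. Without control sgRNA replicate 2 all 20 genes called in control sgRNA cells kept their direction. Of them 18 moved by less than 0.3 on the log2 scale, the exceptions being P2rx1 and P2ry14. Of the 47, none passed between Cd4 and control sgRNA cells in edgeR or voomLmFit, 12 had an unadjusted p under 0.05, against 24.9% of all genes, and DESeq2 called 6, against 11.5% of all genes.

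LPA is the lipid that autotaxin makes. Of 6 LPA receptors and phosphatases tested, 2 rose and 2 fell in each TETact-v3 group. This is 66.7% of those tested in both comparisons, against 28.0% and 20.5% of all genes. Lpar6 went from 0.990 and 1.21 CPM in wild type to 4.25 and 3.795 CPM in control sgRNA and 5.22 and 5.90 CPM in Cd4 sgRNA cells, a log2 fold change of 1.92 (SE 0.226, adjusted p = 0.00364) and 2.38 (SE 0.230, adjusted p = 0.00305). Lpar6 lies within another annotated gene. Lpar2 rose by 1.70 (adjusted p = 0.00565) and 1.58 (adjusted p = 0.0115). Lpar5 fell from 7.38 and 6.54 CPM in wild type to 0.801 and 0.705 CPM in control sgRNA and 1.19 and 0.881 CPM in Cd4 sgRNA cells, and its log2 fold changes were -3.21 (SE 0.204, adjusted p = 0.000820) and -2.79 (SE 0.230, adjusted p = 0.00191). The phosphatases Plpp1 and Plpp2 were not called. For Plpp1 the log2 fold changes were -0.47 (adjusted p = 0.0504) and 0.25 (adjusted p = 0.246). For Plpp2 they were 0.89 (adjusted p = 0.0559) and 0.049 (adjusted p = 0.917). Plpp3, a phosphatase that removes LPA, fell from 12.9 and 11.96 CPM to between 1.56 and 2.32 CPM in the 4 TETact-v3 libraries, with log2 fold changes of -2.95 (adjusted p = 0.000717) and -2.65 (adjusted p = 0.00142). Plpp3 passed in both comparisons without any 1 library, with adjusted p at most 0.0413.

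The P2 receptors are a family named for its nucleotide receptors. Of 9 tested, 4 were called lower in control sgRNA and 3 in Cd4 sgRNA cells, and none higher. Of all genes, 13.5% and 10.7% were lower. With voomLmFit 3 and 2 of the 9 were called lower. P2ry14 and P2rx1 passed the filter on low counts only through wild type, so they could hardly be called higher. No direction of the family is read from these counts. P2ry14, the receptor for UDP-glucose, had 143 and 54 counts in wild type, 10 and 12 in control sgRNA and 5 and 1 in Cd4 sgRNA cells. Its log2 fold changes were -4.62 (SE 0.380, adjusted p = 0.00138) and -5.16 (SE 0.520, adjusted p = 0.00295). These low counts leave the size uncertain, and over the alternatives the values ran from -5.72 to -4.24 in control sgRNA and from -6.86 without Cd4 sgRNA replicate 1 to -4.21 without replicate 2 in Cd4 sgRNA cells. In Cd4 sgRNA cells the call was lost without wild-type replicate 1 (adjusted p = 0.0616) or Cd4 sgRNA replicate 2 (adjusted p = 0.0553). P2rx7, an ATP-gated channel, fell by 1.62 (adjusted p = 0.0145) and 1.99 (adjusted p = 0.0200) on the log2 scale. P2rx1 had 14 and 12 counts in wild type and at most 2 in any other library, and its call in Cd4 sgRNA cells was not made by voomLmFit (adjusted p = 0.0667) or DESeq2 (adjusted p = 0.0640). P2rx2, with at most 20 counts per library, had log2 fold changes of -1.39 (adjusted p = 0.0488) in control sgRNA and -1.33 (adjusted p = 0.102) in Cd4 sgRNA cells. The call in control sgRNA cells was lost in 13 of 16 alternatives, voomLmFit (adjusted p = 0.0514) and DESeq2 (adjusted p = 0.192) among them. P2ry14 and P2rx7 overlap other annotated genes.

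The cGAMP pathway, which ENPP1 limits by cutting cGAMP, had 2 of 3 genes lower in both groups, against 13.5% and 10.7% of all genes. The other gene was the transporter Slc19a1, with log2 fold changes of 0.24 (adjusted p = 0.305) and 0.53 (adjusted p = 0.0690). Cgas, the enzyme that makes cGAMP, went from 2.73 and 2.85 CPM in wild type to 0.837 and 0.853 CPM in control sgRNA and 0.610 and 0.542 CPM in Cd4 sgRNA cells (log2 fold changes -1.72 and -2.28, adjusted p = 0.00350 and 0.00454). Sting1, whose product binds cGAMP, fell by 0.68 (adjusted p = 0.00382) and 0.47 (adjusted p = 0.0144) on the log2 scale.

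Channels and transporters moved in both directions. Panx1, a channel that releases ATP, fell by 0.99 (adjusted p = 0.00267) and 0.73 (adjusted p = 0.00924) on the log2 scale, and the lysosomal nucleoside transporter Slc29a3 by 0.96 (adjusted p = 0.00258) and 0.60 (adjusted p = 0.0129). Slc29a2, a transporter of the cell surface, rose by 0.95 (adjusted p = 0.0209) and 1.10 (adjusted p = 0.0213). Slc29a1 and Slc28a2 were not called. For Slc29a1 the log2 fold changes were 0.26 (adjusted p = 0.0733) and 0.27 (adjusted p = 0.077). For Slc28a2 they were -0.14 (adjusted p = 0.547) and -0.032 (adjusted p = 0.909).

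Among other ectonucleotidases, Alpl, tissue-nonspecific alkaline phosphatase, had 0 counts in both wild-type libraries, 62 and 37 in control sgRNA and 23 and 21 in Cd4 sgRNA cells. Against a limit of 3 counts over the wild-type group this was at least 11.5-fold higher in control sgRNA and at least 13.3-fold higher in Cd4 sgRNA cells. Bst1 rose in Cd4 sgRNA cells by 1.86 (adjusted p = 0.0176), and with control sgRNA it stood at 1.09 (adjusted p = 0.0573). The other 6 tested genes of this group, among them Entpd5 and Entpd6, did not pass against wild type. Of the 8 tested, 12.5% were called in control sgRNA and 25.0% in Cd4 sgRNA cells, against 28.0% and 20.5% of all genes.

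Of 15 intracellular enzymes tested, 3 rose and 3 fell in control sgRNA cells, and 2 rose and 2 fell in Cd4 sgRNA cells. This is 40.0% and 26.7% of those tested, against 28.0% and 20.5% of all genes. The nucleotidases Nt5c3b and Nt5m fell in both, Nt5c3b by 0.98 (adjusted p = 0.00324) and 0.85 (adjusted p = 0.00751) on the log2 scale. Nt5m fell by 0.93 (adjusted p = 0.00569) and 0.57 (adjusted p = 0.0332). Ampd3, an AMP deaminase, rose by 1.19 (adjusted p = 0.0132) and 1.28 (adjusted p = 0.0178), and the kinase Dck by 0.34 (adjusted p = 0.0256) and 0.39 (adjusted p = 0.0235). Nt5c2 fell in control sgRNA cells by 0.83 (adjusted p = 0.0131) and Ahcy rose by 0.34 (adjusted p = 0.0302). In Cd4 sgRNA cells their log2 fold changes were -0.093 and 0.19. Between Cd4 and control sgRNA cells Nt5c2 differed by 0.73 (adjusted p = 0.115). All of these except Dck overlap other annotated genes. Of the adenosine receptors only Adora2a was tested, at 27 counts or fewer per library, and it did not pass.

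**Figure D5:**
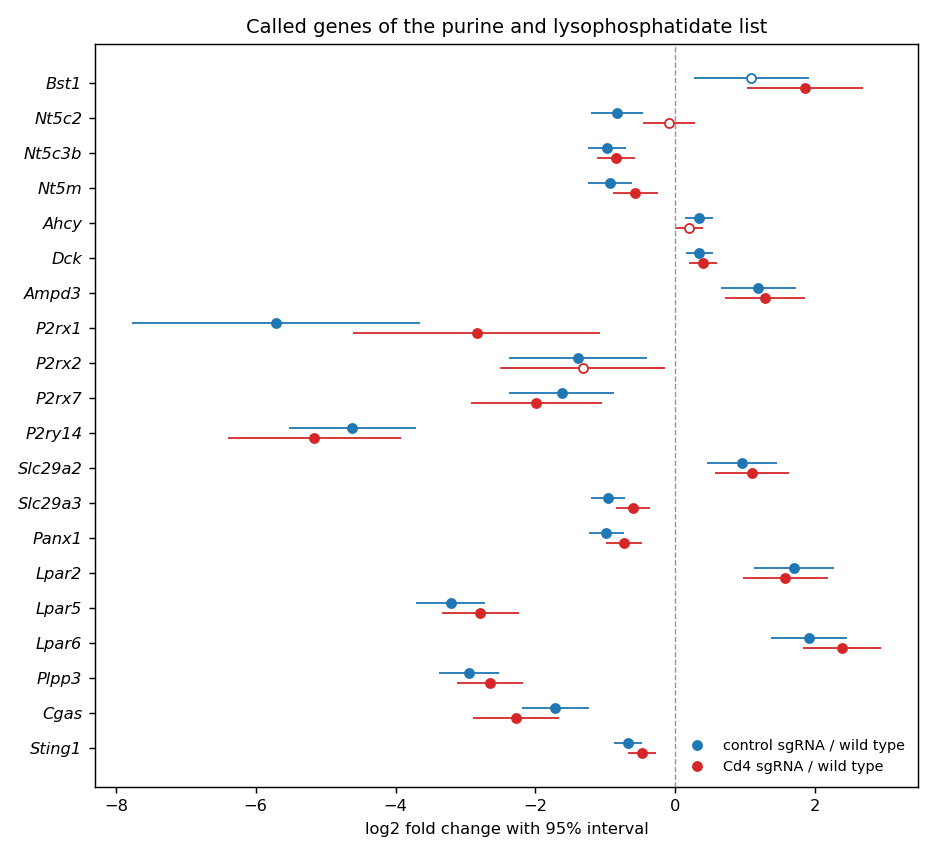
Log2 fold change against wild type (x axis) with its 95% interval for each gene of the wider set called in either comparison. Control sgRNA cells are in blue and Cd4 sgRNA cells in red, with points filled where adjusted p was under 0.05. Alpl is left out because both wild-type libraries had 0 counts. P2rx1, P2ry14, Lpar5 and Plpp3 lie far to the left and Lpar2 and Lpar6 to the right in both.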

How the data were processed

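The 6 A20 libraries formed 3 groups of 2, described in the methods as independently repeated samples. From 66 bp read pairs the authors made gene-level counts on mm10 with Rsubread and featureCounts. These deposited counts were not normalised, and a combined table with the same values was left out. Strand and shared reads are not given in the sources used here.

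Symbols and positions came from RefSeq (GRCm38.p6, the mm10 build), which matched 25275 of 27179 identifiers. Genes without a symbol, mitochondrial and rRNA genes were removed. After filterByExpr, 12418 genes were tested with edgeR 4.0.16 (robust glmQLFit and glmQLFTest, TMM, a group-means model of all 6 libraries, two-sided tests, Benjamini-Hochberg at 0.05) in R 4.3.3. CPM were computed from the deposited counts, and CPM per kb with the gene length in the count files. The test was run on simulated counts in which all groups had the same spread. The control sgRNA replicates differed more than those of the other groups, so this run does not check the p-values for them. voomLmFit (limma 3.58.1, the study's own test) and DESeq2 1.42.0 were among 17 alternatives, and 1 more was chosen after seeing the data.

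The members and lists were chosen with earlier results of these data known. Named genes are all members, genes of the list past the threshold, the neighbours of Enpp3, and the 5 genes most like it. T cell and myeloid markers summed to at most 1.89 and 6.38 CPM. Of 2 T cell markers tested, edgeR called Cd5 higher in Cd4 sgRNA than in wild-type cells (log2 fold change 2.16, adjusted p = 0.0484). With voomLmFit it did not pass (adjusted p = 0.0582). Of all genes, edgeR called 9.85% higher there.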

Additional observations from a re-analysis of the deposited data

How the results depend on the processing

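The rise of Enpp3 kept its direction in all 18 alternatives, with log2 fold changes of 5.05 to 5.65 in control sgRNA and 5.59 to 5.70 in Cd4 sgRNA cells. Counts of called genes were less stable, and the causes were not tested. In control sgRNA against wild type, 2 members other than Enpp3 were higher and 1 lower. Fitting only the 2 groups compared gave 1 and 0, with 1571 genes called in place of 3477, and DESeq2 gave 3 higher and 2 lower. The legacy quasi-likelihood method and no annotation filter also gave 3 higher. In Cd4 sgRNA against wild type the main counts were 1 and 1. Higher members numbered 2 with DESeq2, the legacy quasi-likelihood method and no annotation filter, and 3 with only the 2 groups compared or libraries thinned to the smallest. Lower members numbered 0 with voomLmFit and with library size only, and 2 with DESeq2, with a filter at a CPM of 1 in 2 libraries and with only the 2 groups compared. With only the 2 groups compared, 16 genes of the wider set were higher and 17 lower in place of 7 and 11, and 7452 genes were called in place of 2550. Between Cd4 and control sgRNA cells, DESeq2 called 1427 genes in place of 9, with 4 of the wider set higher and 2 lower. No filter on low counts gave 18 calls, thinned libraries 14 and only the 2 groups compared 1.

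Leaving out 1 library in turn gave 117 to 8210 calls in control sgRNA against wild type, with 0 to 4 members higher, 0 to 2 lower, and 0 to 15 and 3 to 21 genes of the wider set. In Cd4 sgRNA against wild type it gave 81 to 7594 calls, with 0 to 3 members higher, 0 to 2 lower, and 0 to 16 and 1 to 17 of the wider set. Between Cd4 and control sgRNA cells it gave 1 to 7841 calls, with 0 to 3 members higher, 0 to 2 lower, and 0 to 16 and 0 to 7 of the wider set. The highest totals came from leaving out a control sgRNA library, where the lone one is assumed to vary like the other groups. Between Cd4 and control sgRNA cells the log2 fold change reversed without control sgRNA replicate 2 for Enpp1 (0.050), Enpp3 (-0.012) and Enpp4 (-0.12), and without replicate 1 for Entpd1 (-0.27). These members then lay between these values and -0.28, 0.62, 0.28 and, for Entpd1, 0.81.

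Matched by replicate number, deviations from the group means correlated at -0.0099, 0.041 and -0.19 between groups. The last value, between control and Cd4 sgRNA cells, was negative, so replicates of unlike number leaned weakly the same way there. With 2 libraries per group it cannot be shown whether samples were made in pairs. With the replicate block 2971, 2037 and 7 genes were called in the 3 comparisons, and 3 members were higher than in wild type in control sgRNA and 2 in Cd4 sgRNA cells. A crossed pairing of control and Cd4 sgRNA replicates, chosen after seeing the data, gave 3563, 2626 and 6 calls and the same 2 counts of higher members.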
